A study of Mus musculus with 8 samples.

Results

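The block on mouse chromosome 10 between 75.68 and 82.67 Mb (GRCm38) is a gene-rich stretch in which accessible regions leaned towards higher accessibility in leukemic than in non-leukemic marrow cells. Its members are every region of the authors' comparison that starts at or after 75675704 and ends at or before 82667742. They number 740 of the 160978 regions tested, and the rest of chromosome 10 holds another 8286. The limits were chosen by a scan of the same fold changes along the chromosome, so the fold changes and calls of the members are a description and carry no test. Measures that the scan did not use, such as gene density, location and sequence, are given beside those of the rest of the chromosome.

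Open chromatin was measured by ATAC-seq, in which a transposase cuts and tags accessible DNA, in 8 libraries. The cells were mouse marrow cells that carry cKit and were sorted to leave out lymphoid and erythroid cells, a stem and progenitor fraction. The 4 libraries labelled acute myeloid leukemia (AML) had all lost 1 copy of the URE, an upstream enhancer of Spi1, and 2 of them were heterozygous for Tet2 while 2 were Tet2 knockout. The 4 normal libraries were 1 URE heterozygote with intact Tet2, 1 Tet2 heterozygote and 1 Tet2 knockout with intact URE, and 1 wild type, from mice matched for age. The labels do not say whether each library came from a single mouse. No normal library carried both changes, so an effect of leukemia and an effect of carrying both cannot be told apart. The sources used here do not say which libraries entered each side of the authors' leukemic over non-leukemic comparison. That comparison is named for low PU.1, and just 1 normal library had the URE deletion, so its non-leukemic side may rest on a single library. Both normal libraries with a Tet2 change were in lane 8, which held no AML library, while the others were in lanes 6 and 7.

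Spi1 encodes PU.1, an ETS-family transcription factor that binds enhancers and promoters of myeloid genes and whose level is set in large part by the URE. Tet2 oxidises methylated cytosine, and its loss is a frequent lesion of myeloid leukemia. The block holds the tandem genes of neutrophil serine proteases, made by granulocyte precursors and stored in their granules. It also holds genes of general cell function that are packed closely together.

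Sequences are shown for the promoter windows that a called member overlapped, with the neighbouring protease gene Prtn3 for comparison. They run 5′ to 3′ on the gene's own strand over 250 bases before and 50 bases after the start site, from RefSeq (GRCm38.p6). Capitals mark GAGGAA, a core letter string of PU.1 sites, searched on both strands. Elane, which encodes neutrophil elastase, has the window chr10:79886062-79886361 on the plus strand. Gna15, which encodes a G-protein alpha subunit of blood cells, has the window chr10:81524176-81524475 on the minus strand. Prtn3, which encodes proteinase 3, has the window chr10:79879417-79879716 on the plus strand.
Elane: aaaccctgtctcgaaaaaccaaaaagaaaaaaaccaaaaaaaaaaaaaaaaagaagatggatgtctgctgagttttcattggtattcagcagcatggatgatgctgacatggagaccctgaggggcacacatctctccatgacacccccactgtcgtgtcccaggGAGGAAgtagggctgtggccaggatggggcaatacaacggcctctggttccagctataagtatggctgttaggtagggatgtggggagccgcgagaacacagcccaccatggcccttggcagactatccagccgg
Prtn3: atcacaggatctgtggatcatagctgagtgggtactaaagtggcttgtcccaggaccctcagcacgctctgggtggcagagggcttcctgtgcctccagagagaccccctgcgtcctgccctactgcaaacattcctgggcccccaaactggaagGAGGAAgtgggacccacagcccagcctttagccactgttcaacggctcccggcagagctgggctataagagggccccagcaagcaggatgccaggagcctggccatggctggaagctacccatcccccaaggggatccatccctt
Gna15: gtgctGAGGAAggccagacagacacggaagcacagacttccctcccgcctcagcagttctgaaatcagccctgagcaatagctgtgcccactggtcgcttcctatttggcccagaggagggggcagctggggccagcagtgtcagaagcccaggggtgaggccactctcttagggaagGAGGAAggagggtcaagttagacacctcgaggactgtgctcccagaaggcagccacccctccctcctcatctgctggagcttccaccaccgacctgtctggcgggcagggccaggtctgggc

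With the base before the start site as -1, GAGGAA began at base -85 in the Elane window and at base -95 in the Prtn3 window. In the Gna15 window it began at bases -245 and -72. The letters TATAA, the core of a TATA box, began at base -31 in Elane and at base -32 in Prtn3, and were not found in the Gna15 window. GAGGAA stood in 24.5% of the 306 promoter windows of the block, against 28.7% of 1343 windows on the rest of chromosome 10 and 28.3% of all 32851 windows. A match of these letters is a description and not a binding site.

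The block's promoters differed from the chromosome's in base composition. The median window of the block held 14 CpG dinucleotides, against 7 on the rest of chromosome 10 and 7 over all windows. Median GC content was 59.0% in the block, against 50.3% on the rest of chromosome 10. TTNCNNAA, a letter string of C/EBP-type sites, was found on either strand in 23.9% of the block's windows and in 42.4% of those on the rest of the chromosome, against 40.7% of all windows. CANNTG, the E-box, was found in 69.0% of the block's windows and in 72.5% of those on the rest of chromosome 10, against 72.3% of all windows. The part of base composition in these shares was not tested.

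Genes were packed far more densely in the block. It held 359 annotated genes, 243 of them protein coding, against 1907 and 757 on the rest of chromosome 10. That is 34.8 coding genes per Mb in the block and 6.28 per Mb on the rest of the chromosome, a ratio of 5.53. For genes of every type the values were 51.3 per Mb in the block and 15.8 per Mb elsewhere on the chromosome, a ratio of 3.24.

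Accessible regions were also more closely spaced, but less than genes were. The block held 106 regions per Mb, against 68.8 per Mb on the rest of chromosome 10, and regions covered 6.02% of its span, against 3.82%. There were 3.05 regions per coding gene in the block and 10.9 per coding gene on the rest of the chromosome. A region at a gene end was found for 167 of the block's 243 coding genes (68.7%) and for 540 of 757 coding genes on the rest of the chromosome (71.3%). A region counted as lying at a gene end when its centre was 1 kb or less from the first or last base of an annotated gene, since the gene table gave extents without strand.

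Gene families of the block differed in whether they had such a region. Olfactory receptor genes of the Olfr family, which are used in the nose, had a region at an end in 0 of 10 cases in the block and in 7 of 58 on the rest of chromosome 10. The 4 vomeronasal receptor genes and the 3 keratin-associated protein genes of the block had none. All 5 zinc finger genes named Zfp did.

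Members lay near genes more often than other regions of the chromosome. Of the 740 members, 238 (32.2%) lay at a gene end, against 12.4% of the regions on the rest of chromosome 10. Another 353 members lay inside a gene and 149 were intergenic. Exons and introns were not separated here. By start sites alone, 176 members (23.8%) lay within 1 kb of one, against 7.74% on the rest of the chromosome. None lay more than 100 kb from a gene.

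The members were read more deeply. The median log2 abundance, the authors' average read level per region, was 0.50 in the block, against -1.32 on the rest of chromosome 10 and -1.16 on the other chromosomes, with chromosome 2 left out. Abundance was higher within each kind of location. At gene ends the median was 1.59 in the block and -0.07 elsewhere on chromosome 10, inside genes -0.03 and -1.37, and between genes -0.12 and -1.50. The median width was 346.5 bp in the block and 339.5 bp elsewhere on chromosome 10. Within a location the members were the narrower ones, with 573 bp against 747 bp at gene ends.

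The median log2 fold change of the members was 0.52, a 1.44-fold higher accessibility in leukemic cells, against -0.02 on the rest of chromosome 10. The quartiles were 0.10 and 0.91 in the block, with an SD of 0.80 over regions, and -0.72 and 0.53 on the rest of the chromosome, with an SD of 0.95. Of the members, 580 (78.4%) were above 0, against 49.2% on the rest of chromosome 10. Regions share the same libraries and are not replicates. In bulk cells, more cells of a type and more open chromatin per cell cannot be told apart.

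At an adjusted p under 0.001, the threshold of the authors' sets, 20 members rose and 5 fell. That is 2.70% of the members higher and 0.676% lower. Over all regions the shares were 1.24% higher and 1.22% lower, and on the rest of chromosome 10 0.797% higher and 1.10% lower. At 0.05 there were 147 higher members (19.9%) and 30 lower ones (4.05%). The shares at 0.05 were 7.98% higher and 9.21% lower over all regions, and 6.28% higher and 9.05% lower on the rest of chromosome 10. The rule used this contrast, so nothing is read from these shares. Without the 20 and 5 called members the median of the block was 0.52 as well.

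**Figure D1:**
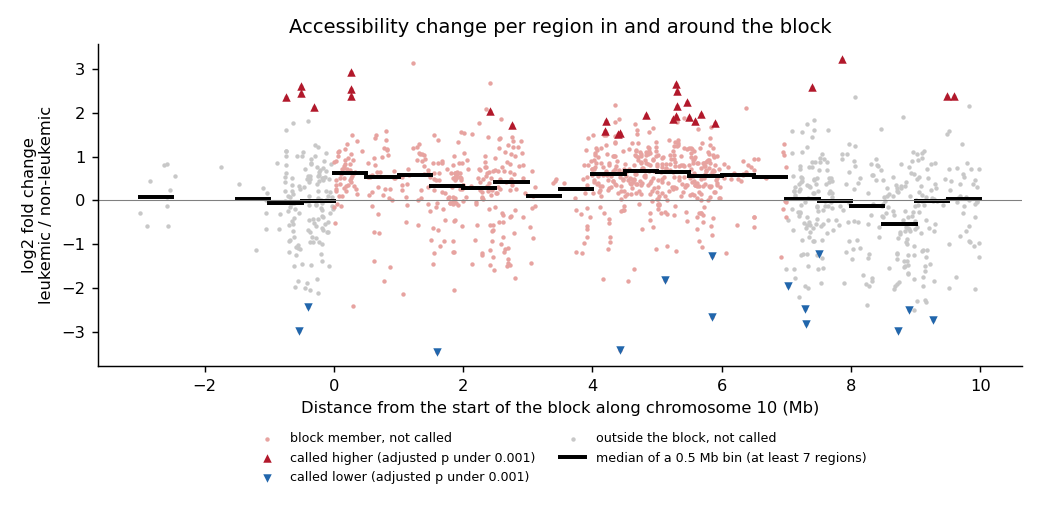
Log2 fold change (leukemic over non-leukemic) of each region by its distance in Mb from the start of the block. Triangles are regions called at an adjusted p under 0.001 and black bars are medians of 0.5 Mb bins. The bins inside the block have medians from 0.10 to 0.67, and the bins next to it are at -0.01 before and 0.04 after.

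The step at the limits was the scan's own. The first members, all near Cabin1, had log2 fold changes of 0.88, -0.15 and -0.53 in the authors' deposited table. The closest region before the limit, also inside Cabin1, had -0.20, and the next 2, at Susd2, had -0.13 and 0.09 in the authors' deposited table. At the other limit, the last members near Glt8d2 had 0.77, -0.05 and -0.39 in the authors' deposited table. The closest regions after it had -1.58, 0.04 and -1.97, of which the last, near Hcfc2, fell with an adjusted p of 3.26e-04 in the authors' deposited table. Over 0.5 Mb outside, the median was -0.01 in 87 regions before the block and 0.04 in 82 regions after it. The single regions at each limit were thus on both sides of 0, and the limits show in medians only.

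The lean was not even along the block. By 0.5 Mb, the medians were 0.62, 0.54, 0.58, 0.32, 0.29 and 0.43 over the first 3 Mb, then 0.10 and 0.26, and then 0.60, 0.67, 0.64, 0.55, 0.58 and 0.53. The low pair of bins lies over the olfactory and vomeronasal receptor genes. Those stretches were drawn after the values were seen and are described in turn.

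From 79.7 to 81.7 Mb, the stretch with the Elane, Gng7, Tcf3 and Gna15 genes, 365 members lay among 118 coding genes, with a median fold change of 0.60. Of these members 85.8% were above 0, 15 rose and 4 fell. At an adjusted p under 0.05, 101 were higher and 6 lower. From 75.7 to 78.7 Mb, the stretch with Itgb2, Trpm2 and Pdxk, 306 members among 82 coding genes had a median of 0.48. There 5 rose and 1 fell, and at 0.05 the counts were 41 higher and 23 lower. Of the block's 30 lower members at 0.05, 23 lay in this first stretch. Over all regions 7.98% were higher and 9.21% lower at 0.05, and 1.24% and 1.22% at 0.001. Both stretches were drawn after the values were seen, so nothing is read from their counts. Between these stretches, from 78.7 to 79.7 Mb, 35 members had a median of 0.17 and none was called. From 81.7 to 82.7 Mb, 34 members had a median of 0.57 and none was called.

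The block was also set beside other stretches of like gene density and other regions of like abundance. Its limits were chosen on these fold changes, so its ranks in fold change are a description. The 1 Mb bins from 75 and 82 Mb, which lie partly in the block, and chromosome 2 were left out. Other 1 Mb bins with at least 20 regions were grouped by their coding genes. Their typical median fold change was -0.06 for 562 bins with 0 to 4 genes, 0.00 for 549 bins with 5 to 9, 0.11 for 436 bins with 10 to 19, 0.24 for 129 bins with 20 to 29 and 0.34 for 93 bins with 30 to 67. Fold changes thus stood higher in gene-dense bins outside the block too. Across the 1769 other bins, Spearman's rho between coding genes and median fold change was 0.32, a description over bins that share the same libraries.

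Against bins of its own density class, the block stood towards the upper end in places and near the middle in others. The bin from 80 to 81 Mb, with 54 coding genes and a median of 0.66, was exceeded by 5 of the 93 densest other bins. The bin from 81 to 82 Mb, with 50 genes and a median of 0.56, was exceeded by 11 of 93. The bin from 79 to 80 Mb, with 39 genes and a median of 0.48, was exceeded by 27 of 93.

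The first bins of the block were less alike. The bin from 77 to 78 Mb, with 38 genes and a median of 0.34, was exceeded by 46 of 93. That from 78 to 79 Mb, with 23 genes and a median of 0.30, was exceeded by 55 of the 129 bins of its class. The bin from 76 to 77 Mb, with 16 genes and a median of 0.54, was exceeded by 10 of 436. Of the 93 densest other bins, 80 had a median above 0. On chromosome 10 itself, other gene-dense bins from 127, 128 and 129 Mb had 45, 50 and 50 coding genes and medians of 0.33, 0.36 and 0.83, the last over 22 regions.

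Abundance set the centre of the block apart more than its fold change did. The median log2 abundance was 1.19 in the bin from 80 Mb and 1.38 in the bin from 81 Mb, and 0 of the 1769 other bins exceeded either. The bin from 79 Mb, at 0.70, was exceeded by 5. The bin from 76 Mb, at -1.34, was exceeded by 944 of the 1769.

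**Figure D2:**
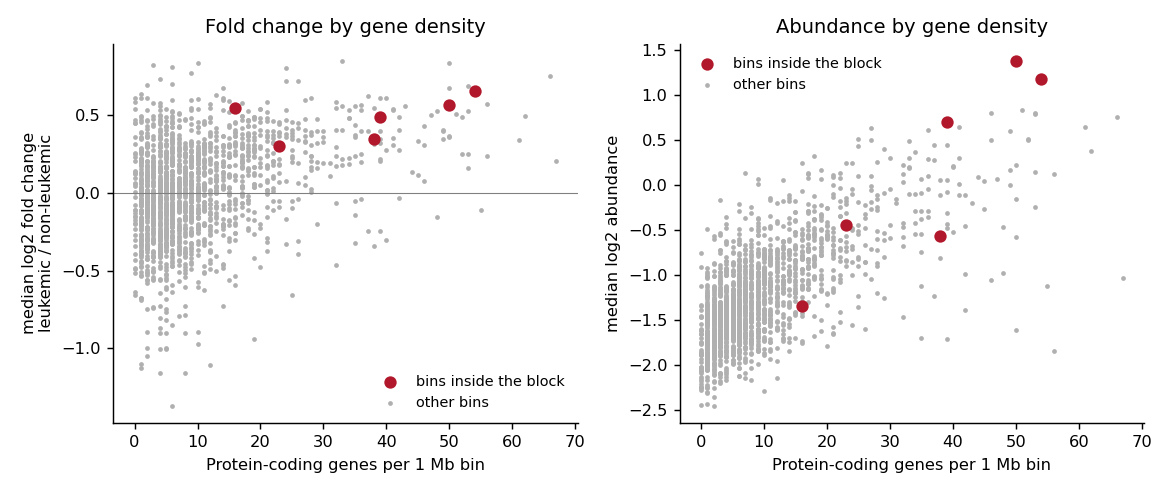
Median log2 fold change (left) and median log2 abundance (right) of 1 Mb bins by their number of protein-coding genes, chromosome 2 left out. The 6 bins inside the block are in red. Grey holds the 1769 other bins and the bins from 75 and 82 Mb, which lie partly in the block. Fold change stands higher in gene-dense bins in general, and the block's bins from 80 and 81 Mb lie above every other bin in abundance.

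The fold change was then compared within 5 equal classes of abundance, numbered from the lowest. The block's medians were 0.50, 0.52, 0.48, 0.80 and 0.47 over 41, 75, 117, 132 and 375 members. Those of the rest of chromosome 10 were 0.05, 0.08, -0.04, -0.20 and -0.22. On the other chromosomes without chromosome 2 they were 0.08, 0.06, 0.02, 0.09 and 0.06. The block was higher in each class, and the gap to the rest of the chromosome was widest in the upper classes. The block was chosen on these fold changes, so its place within a class is a description and carries no test. Of the members, 375 (50.7%) were in the top class, which on the rest of chromosome 10 held 1401 of 8286 regions. In that top class 15 of the 375 members rose and 5 fell, against 17 and 82 of 1401 regions on the rest of the chromosome. Over all regions of the class, 832 of 32196 rose and 1694 fell. On the other chromosomes without chromosome 2, 773 of 27818 rose and 1266 fell.

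**Figure D3:**
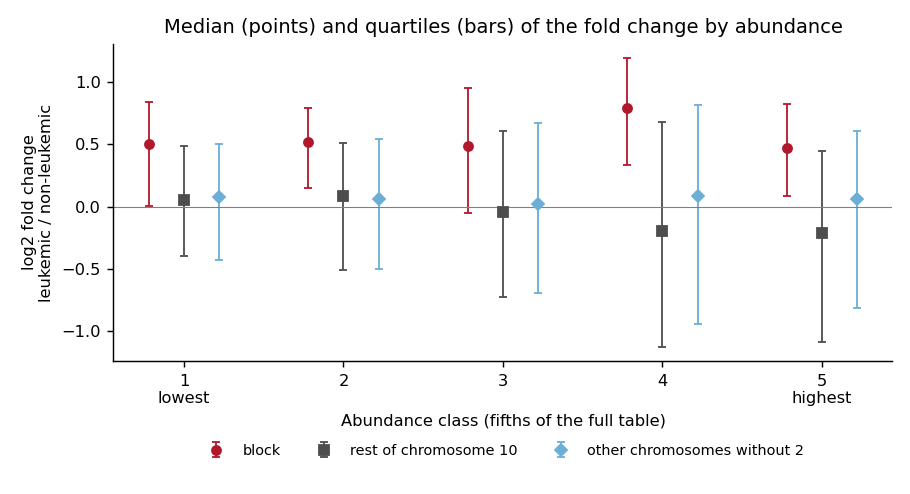
Median (points) and quartiles (bars) of the log2 fold change over regions, by 5 equal classes of log2 abundance. The block's medians lie between 0.47 and 0.80 in every class, while those of the rest of chromosome 10 lie between -0.22 and 0.08.

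By location, the members inside genes had the highest median fold change, 0.63, against -0.02 on the rest of chromosome 10. Between genes the median was 0.49, against -0.08. At gene ends it was 0.47, against 0.14, the narrowest of these gaps. Of the called members, 13 that rose and 3 that fell lay inside genes, 5 and 2 at gene ends, and 2 and 0 between genes. For all regions the counts were 1151 and 1032 of 85906 inside genes and 304 and 355 of 24895 at gene ends. Between genes they were 547 and 574 of 50177. The rule used this contrast, so nothing is read from these counts. Around start sites, 151 of 176 members were above 0, with a median of 0.47, while 2 rose and 1 fell. For all 14897 regions around start sites, 150 rose and 272 fell.

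The 5 most abundant members had fold changes near 0. The region at an end of Izumo4, which covers the whole promoter window of the neighbouring gene Mob3a, had the highest log2 abundance of the block, 5.75, and its log2 fold change was at -0.09, by the authors' deposited table. A region inside Fstl3, a secreted activin-binding protein gene, had 0.19 in the authors' deposited table. Oaz1, the antizyme that restrains ornithine decarboxylase, had 0.02, and Cdc34, a ubiquitin-conjugating enzyme, had 0.16 in the authors' deposited table. Fzr1, an activator of the anaphase-promoting complex, had -0.34 in the authors' deposited table. Those at Oaz1, Cdc34 and Fzr1 lay at a gene end and overlapped the gene's promoter window. None of these 5 was called.

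Gng7, which encodes a G-protein gamma subunit, was the gene with the most called members. Of its 19 members, 16 were above 0, with a median fold change of 1.26, and 12 were higher at an adjusted p under 0.05. By the authors' deposited table, the region chr10:80989323-80991324 rose by 2.50 on the log2 scale, with an adjusted p of 2.40e-05. The narrow region chr10:80963715-80963966 rose by 2.66 with an adjusted p of 2.53e-05 in the authors' deposited table. Regions at chr10:80987923-80988602 and chr10:80960881-80961092 rose by 2.15 and 1.94 in the authors' deposited table. All 4 lay inside the gene. The region at the Gng7 start site had a log2 fold change of 0.47 and an adjusted p of 0.124 in the authors' deposited table, with a log2 abundance of 3.63. The lowest Gng7 member had -1.16 in the authors' deposited table. The centres of the regions that rose lay 24.6, 26.7, 51.1 and 53.9 kb downstream of the start site.

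The neutrophil protease genes lie side by side, and their members leaned one way. The region chr10:79886066-79886339 over the Elane promoter rose by 1.82 in the authors' deposited table, with a log2 abundance of 1.62 and an adjusted p of 5.68e-04. It covers 273 bases of the Elane window printed above, GAGGAA and TATAA included. The 4 members nearest to Prtn3 had log2 fold changes of 0.67, 1.53, 1.26 and 1.51 in the authors' deposited table. The last 3 had adjusted p values of 0.00335, 0.00318 and 0.00125, by the authors' deposited table, and none was called. No member overlapped the Prtn3 window printed above.

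Cfd, which encodes complement factor D, had a member at its end with 1.07 and an adjusted p of 0.0192 in the authors' deposited table. Prss57, a serine protease gene of neutrophils, had no region at an end, and its nearest member had 0.32 in the authors' deposited table. Of the 4 listed protease genes 3 had a region at an end, with a median fold change of 1.51, against 0.47 for all gene-end members. Just that of Elane lay at a start site. Those of Prtn3 and Cfd lay past the downstream ends of the genes, 2249.5 and 2082.5 bp from the nearest listed start site. A region with its centre 20.2 kb before the Elane start site, near Plppr3, rose by 1.60 with an adjusted p of 8.59e-04 in the authors' deposited table.

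**Figure D4:**
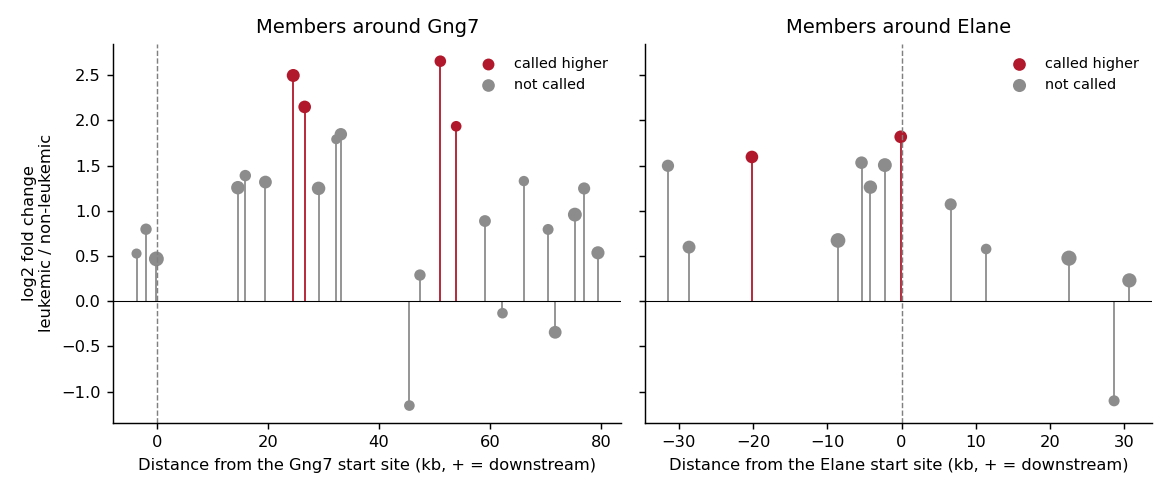
Log2 fold change of the members around the start sites of Gng7 (left) and Elane (right) by distance in kb along the gene's direction. Point size follows log2 abundance and red marks called members. Around Gng7, 20 of 23 members are above 0 and 4 are called higher; around Elane, 12 of 13 are above 0 and 2 are called higher.

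Markers of mature neutrophils, which share granule genes with precursors, did not move one way. The gene-end region of Ltf, which encodes lactoferrin, had a log2 fold change of -2.16 and an adjusted p of 0.00113 in the authors' deposited table. Camp had 0.78 and an adjusted p of 0.0410, and Ngp had -0.74 and an adjusted p of 0.428 in the authors' deposited table. Mmp9 had no region at an end. The part of mature cells in the protease result was not tested.

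Of the sort's own markers, 5 of 6 had a gene-end region, with log2 abundances from 0.09 to 3.26, highest at Kit. Myb had none. The lists of depleted cells had abundances from -2.17 to 1.50 for 5 of 5 erythroid genes, from -1.85 to 1.41 for 4 of 4 B cell genes and from -2.04 to 1.32 for 4 of 4 T or NK cell genes. The 3 megakaryocyte genes ranged from 0.76 to 1.87, the 2 mast cell genes from -1.39 to 0.62 and mature neutrophil genes from 1.92 to 3.74. Open chromatin at a gene end is not expression, so these levels bear on the label in part only. By the authors' deposited table, the gene-end regions of Cd34, a stem and progenitor marker, and Itga2b, a megakaryocyte marker, fell by 2.48 and 2.59. Their adjusted p values were 1.24e-04 and 1.95e-04 in the authors' deposited table. The sort's other markers with a gene-end region went both ways, and none of them was called. Kit had -0.19, Flt3 0.71, Gata2 0.42 and Mpo -0.25 in the authors' deposited table. Mcpt8, a protease gene of the mast cell and basophil lineage, was the one marker called higher. It rose by 1.82 with an adjusted p of 5.82e-04 in the authors' deposited table. Cpa3, the other mast cell gene, went the other way, with -1.35 and an adjusted p of 0.101 in the authors' deposited table. Of the endothelial genes, Pecam1 had a region at an end, with a log2 abundance of 0.22, and Cdh5 had none. The part of these other cell types in the block's values was not tested.

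Leukocyte adhesion and receptor genes gave both directions. Of 13 with a region at an end, 9 were above 0 with a median of 0.33, 0 rose and 1 fell. The region over the Gna15 start site, chr10:81523180-81525356, fell by 1.27 in the authors' deposited table with a log2 abundance of 3.90 and an adjusted p of 6.48e-04. It covers the whole of the Gna15 window printed above. A second Gna15 member, chr10:81517353-81517570, fell by 2.66 with an adjusted p of 1.43e-04 in the authors' deposited table. The median of the 6 Gna15 members was -0.69, and its highest had 1.68 in the authors' deposited table. Gna11, a like alpha subunit gene beside it, had 7 members with a median of 0.68, 6 of them above 0.

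Arhgap45, a RhoGAP gene of blood cells, had 9 members from 0.38 to 2.18 in the authors' deposited table. All 9 were above 0, 7 were higher at an adjusted p under 0.05 and none was called at 0.001. Itgb2, the integrin beta chain shared by leukocyte adhesion receptors, had 16 members with a median of 0.49, 10 of them above 0. Its lowest member had -2.06 and an adjusted p of 0.00104 in the authors' deposited table. Trpm2, a cation channel gene, had 9 members with a median of 0.24, 8 of them above 0. The region at its end had -1.25 with an adjusted p of 0.00348 in the authors' deposited table, and its highest member had 1.77.

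Matk, a kinase gene that acts on Src-family kinases, had 3 members, all above 0. The one starting at 81254914 rose by 1.82 with an adjusted p of 1.38e-04 in the authors' deposited table. Over the whole list, 63 members were nearest to a listed gene, of which 1 rose and 2 fell, and at 0.05 there were 11 higher and 4 lower. For the whole block the shares at 0.05 were 19.9% higher and 4.05% lower, and for all regions 7.98% and 9.21%. At 0.001 they were 2.70% and 0.676% in the block, and 1.24% and 1.22% over all regions. Nothing is read from the counts of this list or of those below.

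Transcription and chromatin factor genes had 97 members nearest to them, of which 7 rose and 2 fell. At 0.05 there were 24 higher and 2 lower, beside 19.9% and 4.05% of the whole block and 7.98% and 9.21% of all regions. Of 18 listed genes with a region at an end, 16 were above 0 with a median of 0.53, and 1 fell. A region that overlaps an end of Pias4, a SUMO ligase gene, with its centre 1.05 kb outside the gene, rose by 1.90 in the authors' deposited table with a log2 abundance of 3.18 and an adjusted p of 4.22e-05. Zbtb7a, a zinc finger repressor of blood cell differentiation, had a region inside the gene that rose by 2.25 with an adjusted p of 5.68e-05 in the authors' deposited table. Another member, which covers the whole Zbtb7a promoter window, had 0.35 and an adjusted p of 0.648 in the authors' deposited table, with a log2 abundance of 3.87. A less abundant region before the gene, the one that counts as its gene-end region by its centre, had -0.48 and an adjusted p of 0.142 in the authors' deposited table.

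Sbno2, a transcriptional coregulator gene, held called members of both directions. Regions starting at 80070982 and 80098696 rose by 1.52 and 1.54 in the authors' deposited table. The region chr10:80105449-80105806 at an end of Sbno2 fell by 3.41 with an adjusted p of 4.80e-05 in the authors' deposited table, with its centre 2.93 kb from the nearest listed start site. Of the 7 Sbno2 members, 6 were above 0. Dot1l, a histone methyltransferase gene, was mixed as well. By the authors' deposited table, its region starting at 80792219 fell by 1.81 with an adjusted p of 7.23e-04, while its start-site region had 0.17. The median of its 8 members was 0.48.

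Hmg20b, a subunit of the LSD1 and CoREST complex, had a member that rose by 1.98 with an adjusted p of 2.47e-04 in the authors' deposited table. Its centre lay 968.5 bp outside the gene. The region over the Hmg20b promoter window had 0.01 and an adjusted p of 0.988 in the authors' deposited table, with a log2 abundance of 5.11. Tle5, of the Groucho family of corepressors, and Onecut3, a homeobox factor gene, had members that rose by 1.77 and 1.96 in the authors' deposited table. All 6 Onecut3 members were above 0, with a median of 0.98. Tcf3, which encodes the E proteins of lymphoid development, had 10 members, 9 of them above 0, with a median of 0.75. None was called, and its end region had 0.86 and an adjusted p of 0.130 in the authors' deposited table.

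Among kinase and signalling genes, 78 members were nearest to a listed gene. Gng7 held all 4 of those that rose, and none fell. At 0.05 there were 27 higher and 1 lower, beside 19.9% and 4.05% of the whole block and 7.98% and 9.21% of all regions. Of 12 listed genes with a region at an end, 10 were above 0, with a median of 0.32, and none was called. Mknk2, a kinase that phosphorylates a cap-binding translation factor, had 7 members, all above 0, with a median of 0.84. Stk11, which encodes the LKB1 kinase, had 4 members with a median of 0.13. The end region of Dapk3, a kinase of the death-associated family, had 0.98 and an adjusted p of 0.00463 in the authors' deposited table.

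The end-region medians of RNA, translation and mitochondrial genes stood below the 0.47 of all gene-end members, and that of the Zfp genes above it. Of 16 RNA and translation genes with a region at an end, 15 were above 0, with a median of 0.32, and none was called. Ptbp1, a splicing repressor, had the highest of them, 1.50 with an adjusted p of 0.0130 in the authors' deposited table. All 6 mitochondrial genes with a region at an end were above 0, with a median of 0.42 and no call there. Of the 8 members nearest to a gene of that list 1 rose, near Chchd10. The 5 Zfp genes had end regions from 0.15 to 0.94 with a median of 0.65, and none was called.

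The smaller lists gave no call at an end either. The glutathione genes had a median of 0.37 over 3 end regions, the matrix genes 0.46 over 3, and the nuclear envelope and centrosome genes 0.21 over 2. Lmnb2, the lamin B2 gene, had a member inside the gene that rose by 1.87 with an adjusted p of 4.75e-04 in the authors' deposited table. Neighbouring genes share a region at their ends in 3 cases (Timm13 and Lmnb2, Ddt and Gstt3, Mmp11 and Chchd10), so their values are not separate.

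**Figure D5:**
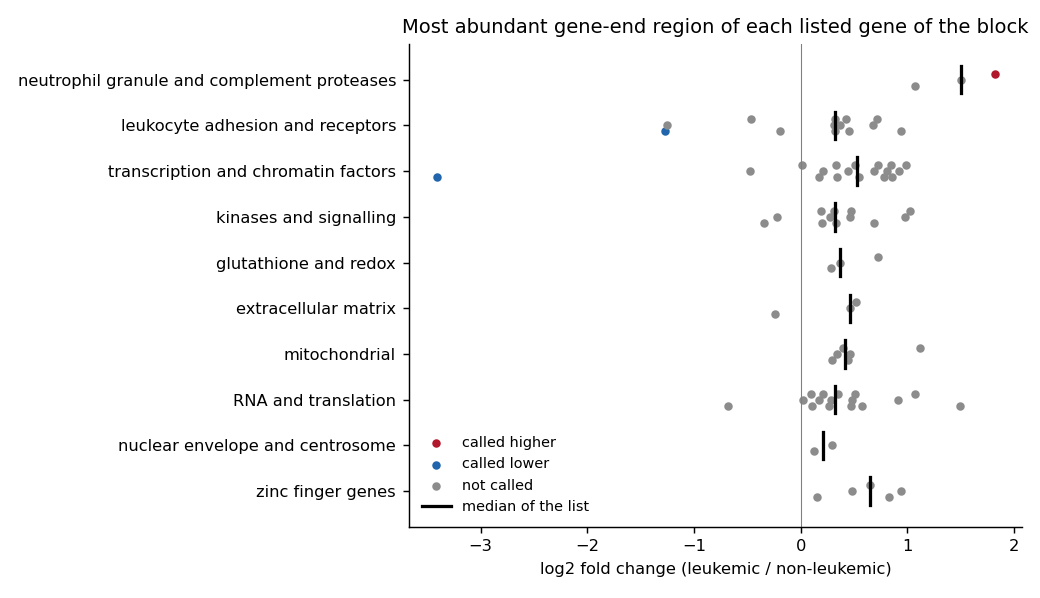
Log2 fold change of the most abundant gene-end region of each listed gene of the block, 1 point a gene, with the median of each list as a black bar. The protease genes lie between 1.07 and 1.82. The lowest point, -3.41, is Sbno2, and the other called lower gene is Gna15.

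Further members were called in the first stretch of the block. A pair of regions at Gm867 rose by 2.94 and 2.55, by the authors' deposited table, with adjusted p values of 6.04e-05 and 7.52e-04. A region beside them, near Chchd10, a gene of a mitochondrial protein, rose by 2.40 with an adjusted p of 1.25e-04 in the authors' deposited table. These 3 regions start at 75937270, 75938451 and 75939951. Regions near Gm30039 and Pdxk, the pyridoxal kinase gene, rose by 2.04 and 1.73 in the authors' deposited table. The 6 Gm30039 members had a median of -0.21, with 1 higher and 2 lower at an adjusted p under 0.05. Of the 6 Pdxk members 5 were above 0, with a median of 1.12. The member over the Pdxk promoter window had -0.75 and an adjusted p of 0.00426 in the authors' deposited table, with a log2 abundance of 4.43. Pofut2, an O-fucosyltransferase gene, had a region that fell by 3.46 with an adjusted p of 2.47e-04 in the authors' deposited table.

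The members' genes were many. In all, 238 genes were nearest to at least 1 member, and 18 of them had a called one. Of the 101 genes with at least 3 members, 83 had a median above 0 and 18 did not. The member of highest fold change, near Pcbp3, had 3.14 but an adjusted p of 0.00630 in the authors' deposited table and was not called.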

How the data were processed

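Per the submitters' processing notes, GRCm38 (mm10), Bowtie2 2.4.1, SAMtools 1.10.2 and Genrich 0.6 were used. The deposited table carries csaw, a method that tests windows for differential accessibility, in its title. The sources used here do not give settings, normalization, read filters or any transposase shift. The authors deposited, per region, a log2 fold change (leukemic over non-leukemic), a log2 abundance (a reading of that column from its position and range), a p-value and an adjusted p-value. The adjusted p equals a Benjamini-Hochberg adjustment over all 160978 regions within 2.39e-15. The deposited sets equal an adjusted p under 0.001. There are no values per library, so depth is unknown and no replicate test or interval was possible. Starts are printed as deposited, with no source used here saying whether they count from 0 or 1.

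Regions were given to the nearest gene extent within 100 kb (RefSeq, GRCm38.p6, 49997 genes, 21900 coding). This assigned 158996 regions (98.8%). Counts, medians and shares were computed with Python 3.11.15 and pandas 2.3.3, and the counting was tested on simulated data. The members and the lists were chosen with earlier results of these data known. Named are called members (the 15 of lowest adjusted p per direction), genes with at least 3 members and a called one, listed genes, the 5 most abundant members and those at the limits. Plppr3, Tle5, the second Gm867 region, Pcbp3 at 3.14 and the genes leaning lower in the closing section were named after their values were seen. Of 104 listed symbols, those outside the block were only counted. Thresholds, limits, location, density and abundance were varied.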

Additional observations from a re-analysis of the deposited data

How the results depend on the processing

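The median fold change of the block minus that of the rest of chromosome 10 was 0.55 and was above 0 in every alternative run. The limits were chosen on these fold changes and most runs keep many of the same members, so nothing is read from that sign. The difference was 0.71 for regions at or above the median abundance, 0.50 with the limits widened by 0.5 Mb, and 0.33 at gene ends. Inside genes it was 0.66, and against the other chromosomes without chromosome 2 it was 0.46. By abundance class, an alternative chosen after seeing the data, it was 0.45, 0.44, 0.99 and 0.69 in classes 1, 2, 4 and 5. It moved by under 0.05 with the limits drawn in, between genes, in class 3, and, as chosen after seeing the data, without Gng7 or without called members. The 20 higher calls became 147 at 0.05 and 7 at 0.0001. The 5 lower calls became 30, 1 and, with wider limits, 9. The share at gene ends was 32.2%, against 23.2% within 0.5 kb, 53.6% within 3 kb, 26.5% for coding genes and, chosen after seeing the data, 23.8% for start sites. The gene density ratio of 3.24 was 5.53 for coding genes, and the region density ratio of 1.54 was 2.59 for abundant regions. The abundance difference of 1.82 was 1.33 inside genes and 1.38 between genes. The width difference of 7 bp reversed to -174, -29 and -39 bp at gene ends, inside genes and between genes, so it followed the mix of locations.

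The main limit is that which libraries stood on each side is unknown and no library values were used. No paired analysis was possible because the values come from no test made here, and for the same reason no replicate was left out. With depth unknown, a region that was not called is not shown to be unchanged.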

Other observations

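Some genes of the block leaned the other way, as read after their values were seen. The 5 members nearest to Gm40709, between Agpat3 and Pdxk, had a median fold change of -1.34, with 4 lower at an adjusted p under 0.05 and 1 above 0. Agpat3, an acyltransferase gene of phospholipid synthesis, had 11 members with a median of -0.29, 5 of them above 0. Gm47922 had 9 with a median of -0.69 and 3 above 0. Arid3a, a transcription factor gene known from B cells, had 5 with a median of -0.42 and 2 above 0. None of these genes had a called member.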
